A study of Mus musculus with 12 samples.

Results

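Mptx1 and Mptx2, the mucosal pentraxins of the mouse, are described here in 12 RNA-sequencing libraries of colon. They are 2 of the 27179 genes in the deposited table, found by their symbols and chosen by their measured levels, because both were lower after enteric neurons had been ablated. That difference is therefore given below as a description, without a test. The study's title concerns how glia guide enteric neurons back into the intestine after birth. The ablated group (n = 7 libraries) had the genotype BAF53b-Cre::R26-iDTR, in which Cre under the promoter of the neuronal BAF53b gene switches on a diphtheria toxin receptor at the Rosa26 locus. The control group (n = 5 libraries) had the genotype R26-iDTR, came from littermates and lacked Cre, so the receptor was not expressed. Animals of both groups underwent laparotomy and a 4 µL injection of diphtheria toxin at 0.33 ng/µL with 10% India ink into the muscle layer, and the full wall at the ink mark was taken. The age and sex of the animals, the time between toxin and dissection, and the place of the site along the colon are not given in the labels. Nor do they say whether each library is a separate mouse, so spreads and p-values refer to libraries.

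Pentraxins are secreted proteins that assemble into rings and bind their ligands in a calcium-dependent way. The short pentraxins Crp (C-reactive protein) and Apcs (serum amyloid P) are products of the liver and can engage complement C1q and Fc gamma receptors, while the long pentraxins include Ptx3 of inflamed tissue and the neuronal pentraxins of synapses. Mucosal pentraxin was first described in rat colon, where dietary heme lowers its RNA, and in mouse small intestine Mptx2 is used as a marker of Paneth cells.

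Mptx1 (ENSMUSG00000026531) lies on the plus strand of chromosome 1 at chr1:174330518-174332873 in mm10, and Mptx2 (ENSMUSG00000079180) on the minus strand at chr1:173274382-173277777. Their lowest coordinates are 1056.1 kb apart, and Apcs (chr1:172893961-172895041) and Crp (chr1:172698055-172833031) lie on the same chromosome beyond Mptx2. Each mucosal pentraxin has 1 annotated transcript of 2 exons. The 2 transcripts matched at 734 of 794 aligned bases (92.4%), and their coding sequences, each of 660 bases, at 607 (92.0%). The longest run shared without a difference was 112 bases, and 134 of the 745 windows of 50 bases in the Mptx2 transcript also occur in Mptx1. A read lying wholly in such a window fits both genes.

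The likeness reaches upstream of the genes. The 250 bases before each RefSeq start (GRCm38.p6) are printed to show it, with bases in capitals where the aligned stretch differs from the other gene or has no partner there. They come from chr1:174330268-174330517 (plus strand) for Mptx1 and chr1:173277757-173278006 (minus strand) for Mptx2.
Mptx1: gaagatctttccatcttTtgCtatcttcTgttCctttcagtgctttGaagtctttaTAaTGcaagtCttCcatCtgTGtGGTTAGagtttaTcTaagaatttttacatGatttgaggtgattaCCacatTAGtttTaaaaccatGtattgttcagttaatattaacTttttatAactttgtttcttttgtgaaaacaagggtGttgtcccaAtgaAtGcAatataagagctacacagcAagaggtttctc
Mptx2: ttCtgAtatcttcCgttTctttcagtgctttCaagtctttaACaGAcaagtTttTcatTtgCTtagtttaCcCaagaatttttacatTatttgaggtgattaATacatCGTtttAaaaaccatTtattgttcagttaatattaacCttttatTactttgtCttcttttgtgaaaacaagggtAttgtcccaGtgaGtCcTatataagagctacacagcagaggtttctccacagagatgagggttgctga
Of 228 aligned bases, 197 were identical (86.4%). The string TATAA, the core of a TATA box, occurred on the gene's strand 29 bases before the RefSeq start of Mptx1 and 49 bases before that of Mptx2. It lay in a shared stretch there, and occurred 2 more times in Mptx1. The GENCODE annotation begins Mptx2 further upstream, at 173277777, so the last bases printed for Mptx2 lie inside that transcript. For Mptx1 the RefSeq and GENCODE starts are the same, so the distances of 29 and 49 bases cannot be compared. On either strand it is present in 22.8% of 32851 RefSeq promoters cut to the same length. A core string of the intestinal factor CDX2, TTTATNG, matched once in Mptx2 and not in Mptx1 (9.81% of promoters), and the STAT string TTCNNNGAA matched in neither (7.02%), with both strands searched.

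Mptx1 was one of the most abundant messages of the control colon. It stood at 9637, 8642, 8451, 8684 and 10105 TPM (a level scaled to gene length and to the library's total) in control 1 to 5. It took 4th or 5th place among all genes in each of these libraries, and 0.845 to 1.01% of all TPM. In ablated 1 to 7 it stood at 281, 948, 2602, 1402, 7556, 381 and 1580.3 TPM. The control libraries lay close together, whereas the ablated libraries were spread from a place near the controls, in ablated 5, to values far below them, in ablated 1 and 6.

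The mean level of Mptx1 was 9104 ± 725 TPM (SD, n = 5) in control and 2107 ± 2529 TPM (SD, n = 7) in ablated, or 23.1% of control. The difference of mean log2(TPM + 0.5) was -2.88, and the authors' deposited table gives a log2 fold change of -2.16. All ablated libraries lay below all control libraries, as they did for 1.55% of the 16164 genes tested. Among 162 tested genes with a control mean of at least 1000 TPM, Mptx1 had the lowest log2 fold change, followed by Igkc (-1.33) and Igha (-1.26), which encode constant parts of the antibodies made by plasma cells. Its rank by mean level went from 4 in control to 57 in ablated. In a piece of tissue, fewer cells of a type and less RNA per cell cannot be told apart.

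**Figure D1:**
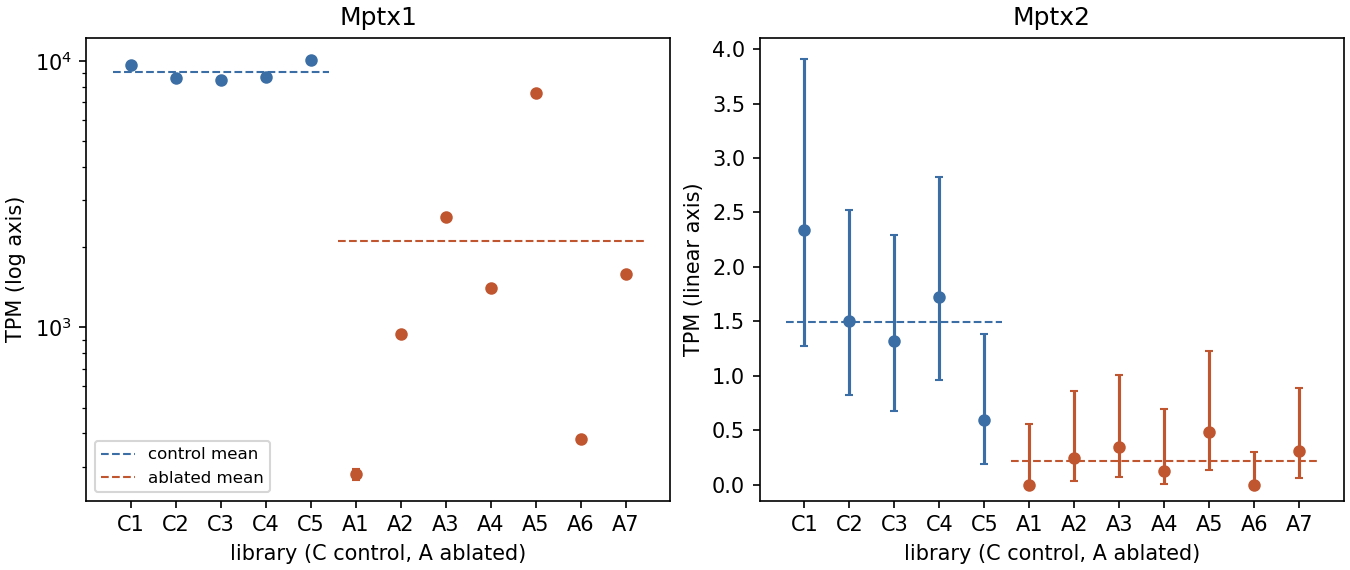
TPM of Mptx1 (log axis) and Mptx2 (linear axis) in each of the 5 control (C) and 7 ablated (A) libraries, with 95% Poisson intervals of the recovered reads as bars (up to the limit of 3 reads where none was found) and group means as dashed lines. Mptx1 falls from 9104 to 2107 TPM in the mean while ablated 5 stays at 7556 TPM, and the intervals of Mptx2 are wide.

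The spread of Mptx1 differed between the groups as well. Its SD was 7.96% of the mean in control and 120% of the mean in ablated, where the highest library was 26.9-fold above the lowest. On the log2 scale the SD was 0.11 in control and 1.62 in ablated. Of the 169 tested genes whose mean reached 1000 TPM in control or in ablated, none had a larger log2 SD among the ablated libraries (median 0.33), while in control it ranked 50th from the lowest (median 0.16). Without ablated 5 the ablated mean was 1199 ± 864 TPM (n = 6), 7.59-fold below control.

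Depth does not limit these values, since 1750 to 98306 reads per library lay behind Mptx1. Library make-up differed in the lowest libraries, and its relation to Mptx1 was not tested. Ablated 1 and ablated 6, the libraries lowest in Mptx1, had 16.9% and 9.76% of their reads from mitochondrial genes, against 3.38 to 9.31% in the other 10 libraries, and lay at 85.2 and 44.5 on the first principal component, against -45.95 to 22.01. Ablated 4, 5 and 7 lay close together on that component, at -40.97, -40.05 and -45.95, with 1402, 7556 and 1580 TPM of Mptx1. Without ablated 1 and 6, the ablated mean was 2818 ± 2717 TPM (n = 5), 3.23-fold below control. With Epcam, an adhesion molecule of all gut epithelium, as the denominator, Mptx1 was at 5.43 to 6.66 times Epcam in control. The ratio was 0.260, 0.698, 1.64, 0.977, 5.07, 0.338 and 1.01 in ablated 1 to 7, so all but ablated 5 were far below the control range. Relative to the mean of 15 general epithelial genes, the log2 difference of Mptx1 was -2.93.

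Mptx2 was a rare message beside its copy. It stood at 2.34, 1.51, 1.32, 1.72 and 0.595 TPM in control 1 to 5, from 14, 14, 12, 15 and 5 reads. In ablated 1 to 7 it stood at 0, 0.239, 0.345, 0.126, 0.479, 0 and 0.304 TPM, from 0, 2, 3, 1, 4, 0 and 3 reads. The groups did not overlap, as for 1.55% of the genes tested with ablated lower, and control 5 and ablated 5 differed by 1 read (5 and 4).

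The means were 1.495 ± 0.633 TPM (SD, n = 5) in control and 0.213 ± 0.181 TPM (SD, n = 7) in ablated, a 7.01-fold difference resting on 60 and 13 reads. The difference of mean log2(TPM + 0.5) was -1.46, and it was -1.01 with 1 and -2.51 with 0.1 added in place of 0.5. The authors' deposited table gives -2.73. Where no read was found, a limit of 3 reads stands for 0.556 TPM in ablated 1 and 0.301 TPM in ablated 6. The exact 95% Poisson interval reaches 0.684 and 0.370 TPM there, and in ablated 1 that is above the level of control 5 (0.595 TPM).

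Against Mptx1, the reads of Mptx2 were few in both groups. In control there were 60 reads of Mptx2 and 434711 of Mptx1, or 1.38 per 10000 reads of both (exact 95% binomial interval 1.05 to 1.78). In ablated there were 13 and 145456, or 0.894 per 10000 (0.476 to 1.53), with 73021 of these Mptx1 reads from ablated 5. The intervals pool libraries and cover counting error only. By library the ratio to Mptx1 ran from 0.509 (control 5) to 2.10 (control 1) per 10000 in control and from 0 to 2.18 (ablated 2) in ablated. How far reads of Mptx1 placed at its copy contribute to the level of Mptx2 was not tested, and the values of Mptx2 are uncertain for that reason.

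The levels of the 2 genes were also set against each other among libraries of 1 genotype. All ablated values of Mptx2 rest on 0 to 4 reads and are at most 0.479 TPM, so the gene passed the minimum for testing through the control libraries, and the part of misplaced Mptx1 reads in the relation was not tested. For these reasons the p-values below only describe these libraries and cannot decide whether the 2 genes vary together. Over the 7 ablated libraries, log2(TPM + 0.5) of Mptx1 and Mptx2 had Pearson r = 0.938 (exact permutation p = 0.00198, adjusted p = 0.0298 over 15 relations). Spearman's rho was 0.955 (exact permutation p = 0.00397, adjusted p = 0.0595), and r was 0.875 without ablated 1 and 5, the libraries farthest from the median of Mptx1. Ablated 1 and 6 had the lowest Mptx1 and no Mptx2 read, and ablated 5 had the highest level of both. With each value taken relative to general epithelial genes, r was 0.621 (exact permutation, adjusted p = 0.561). The adjusted p of the exact permutation test also exceeded 0.05 without ablated 1 (0.25), ablated 3 (0.0625), ablated 5 (0.25), ablated 6 (0.208) or ablated 7 (0.0694), where r was 0.909 to 0.948. In control, 5 libraries are too few for a correlation: control 5 had the highest Mptx1 and the lowest Mptx2.

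**Figure D2:**
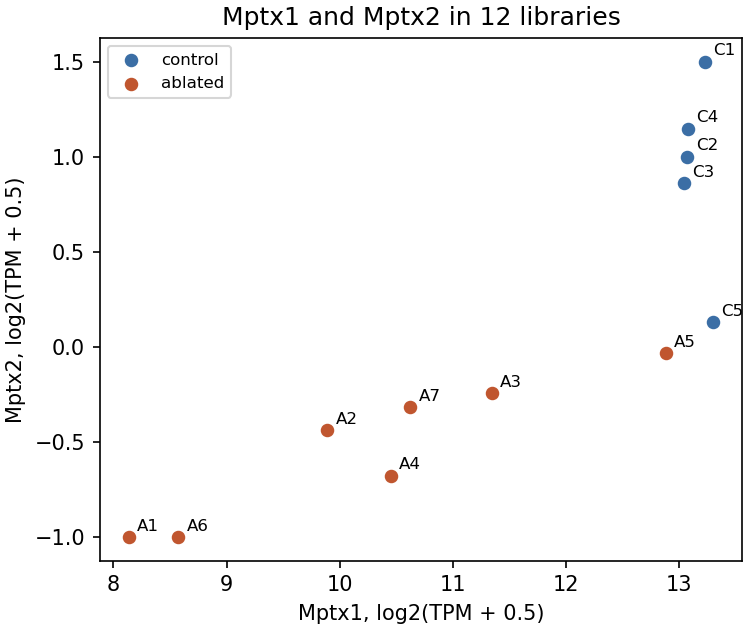
Mptx2 against Mptx1, both as log2(TPM + 0.5), in each control (C) and ablated (A) library. The ablated libraries run from ablated 1 and 6 at the lower left, without a Mptx2 read, to ablated 5 near the controls. Their r of 0.938 (7 libraries) rests on 0 to 4 Mptx2 reads in each and cannot decide whether the 2 genes vary together. The control libraries differ in Mptx2 at nearly the same Mptx1.

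The levels of 7 lists were set against each gene in the same 7 libraries, and none of these relations passed the adjustment. The highest was that of Mptx1 with absorptive colonocyte genes (r = 0.880, exact permutation p = 0.0101, adjusted p = 0.0759; rho = 0.893, exact permutation p = 0.0123, adjusted p = 0.0923), and r was 0.682 without ablated 1 and 5. Without ablated 3 its r was 0.929 and it passed (exact permutation, adjusted p = 0.0417). For Mptx1 with general epithelial genes r was 0.828 (exact permutation, p = 0.0202, adjusted p = 0.101; rho = 0.786, p = 0.048, adjusted p = 0.18), and 0.774 without the same libraries. With pan-neuronal genes r was 0.447 (exact permutation, p = 0.314, adjusted p = 0.392; rho = 0.357, p = 0.444, adjusted p = 0.548), and 0.228 without them. The summed level of the neuronal list was 38.8 to 76.5 TPM in ablated and 192 to 409 TPM in control. The highest sums of the ablated group were 75.3 TPM in ablated 5 and 76.5 TPM in ablated 2, which had 7556 and 948 TPM of Mptx1.

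Of the other pentraxins none was called. Apcs was at 0 in all 12 libraries, and Crp was above 0 only in control 1 (0.341 TPM) and ablated 3 (0.0941 TPM). Ptx4 and Nptxr, the neuronal pentraxin receptor, had group means of 0.0655 TPM or less. The 3 that could be tested did not pass, where 1.43% of all tested genes did. Ptx3 was at 0.703 ± 0.283 TPM in control and 0.769 ± 0.657 TPM in ablated (limma adjusted p = 0.992), Nptx1 at 0.598 ± 0.194 and 0.794 ± 0.16 TPM (adjusted p = 0.618), and Nptx2 at 0.757 ± 0.556 and 1.01 ± 0.338 TPM (adjusted p = 0.693).

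Partners of pentraxins were measured at ordinary levels. Of 13 tested genes for C1q, other complement proteins, Fc gamma receptors and ficolins, none passed in either direction, with 1.43% of all tested genes passing. Their median log2 fold change was -0.0041, against 0.03 over all tested genes. The lowest p was that of Fcna, a ficolin of macrophages, at 5.81 ± 1.68 TPM in control and 9.04 ± 1.98 TPM in ablated (adjusted p = 0.213, and 0.0412 without ablated 1 and 6). C4bp, a complement regulator, was at 9.42 ± 1.84 and 14.6 ± 6.3 TPM (adjusted p = 0.548).

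Genes of epithelial cell types followed. Of 18 tested goblet cell genes, 6 rose and none fell, where 0.421% of all tested genes rose and 1.01% fell. Their median log2 fold change was 0.56. Sytl2, a protein of granule transport, rose 2.23-fold from 12.8 ± 1.17 TPM (n = 5) to 28.4 ± 6.86 TPM (n = 7), with an adjusted p of 0.00322. The trefoil peptide Tff3 rose 2.14-fold (adjusted p = 0.0061), Bcas1 2.04-fold (adjusted p = 0.00624) and the mucus lectin Zg16 2.53-fold (adjusted p = 0.00844). With library number as a block all 4 calls were lost (adjusted p of 0.0597, 0.0845, 0.0619 and 0.135 for Sytl2, Tff3, Bcas1 and Zg16). The labels pair no libraries by number, so here and below this block is an arbitrary pairing. In each of these 4 genes all ablated libraries lay above all control libraries, as they did for 1.33% of the genes tested. The list's summed level did not overlap between the groups, with 15497 to 22217 TPM in control and 23659 to 36207 TPM in ablated.

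Of 6 tested Paneth cell genes, 1 rose, where 0.421% of all tested genes did: Clps, the cofactor of pancreatic lipase, from 37.2 ± 7.52 to 68.5 ± 14.3 TPM (adjusted p = 0.0176, and 0.0614 to 0.208 without control 2 or control 5 or with library number as a block). The Paneth cell defensins Defa17, Defa21 and Defa24 were at 0 in all libraries, and Lyz1, the Paneth cell lysozyme, was at 6.88 ± 3.48 TPM in control and 4.16 ± 4.55 TPM in ablated (adjusted p = 0.491). None of the 13 tested crypt base and stem cell genes, 19 absorptive colonocyte genes or 15 general epithelial genes passed, with medians of -0.05, 0.20 and 0.12. Over all tested genes 1.43% passed. Ascl2, a transcription factor of crypt stem cells, was at 13.5 ± 4.01 and 7.94 ± 2.11 TPM (adjusted p = 0.18). Car1, a carbonic anhydrase of colonocytes, was at 1222 ± 436 and 2913 ± 978 TPM (adjusted p = 0.123), and its adjusted p was 0.0118 to 0.0399 with quantile normalization, with library number as a block, or without ablated 1 alone or with ablated 6. Cdx1, a transcription factor of intestinal epithelium, had the lowest p of the general list, at 374 ± 43.3 and 318 ± 51.4 TPM (adjusted p = 0.493).

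Response genes of the epithelium gave no call, where 1.43% of all tested genes were called, so lists of this size seldom hold one. Of 18 tested antimicrobial and acute response genes none passed (median 0.14). Saa2, a serum amyloid A, was at 1.37 ± 0.566 and 2.83 ± 0.873 TPM (adjusted p = 0.12) and the cathelicidin Camp at 1.10 ± 0.545 and 0.486 ± 0.348 TPM (adjusted p = 0.365). Of 15 tested genes of heme handling and oxidative defence none passed (median -0.04). The haemoglobin-binding Hp was at 10.3 ± 3.76 and 6.85 ± 7.18 TPM (adjusted p = 0.551), and Txnrd1, a thioredoxin reductase, at 77.9 ± 10.8 and 99.7 ± 30.8 TPM (adjusted p = 0.634). Position along the colon, read from 13 tested Hox genes, gave no called gene (median -0.05). Hoxd11 was at 7.69 ± 4.75 and 11.8 ± 4.80 TPM (adjusted p = 0.536).

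**Figure D3:**
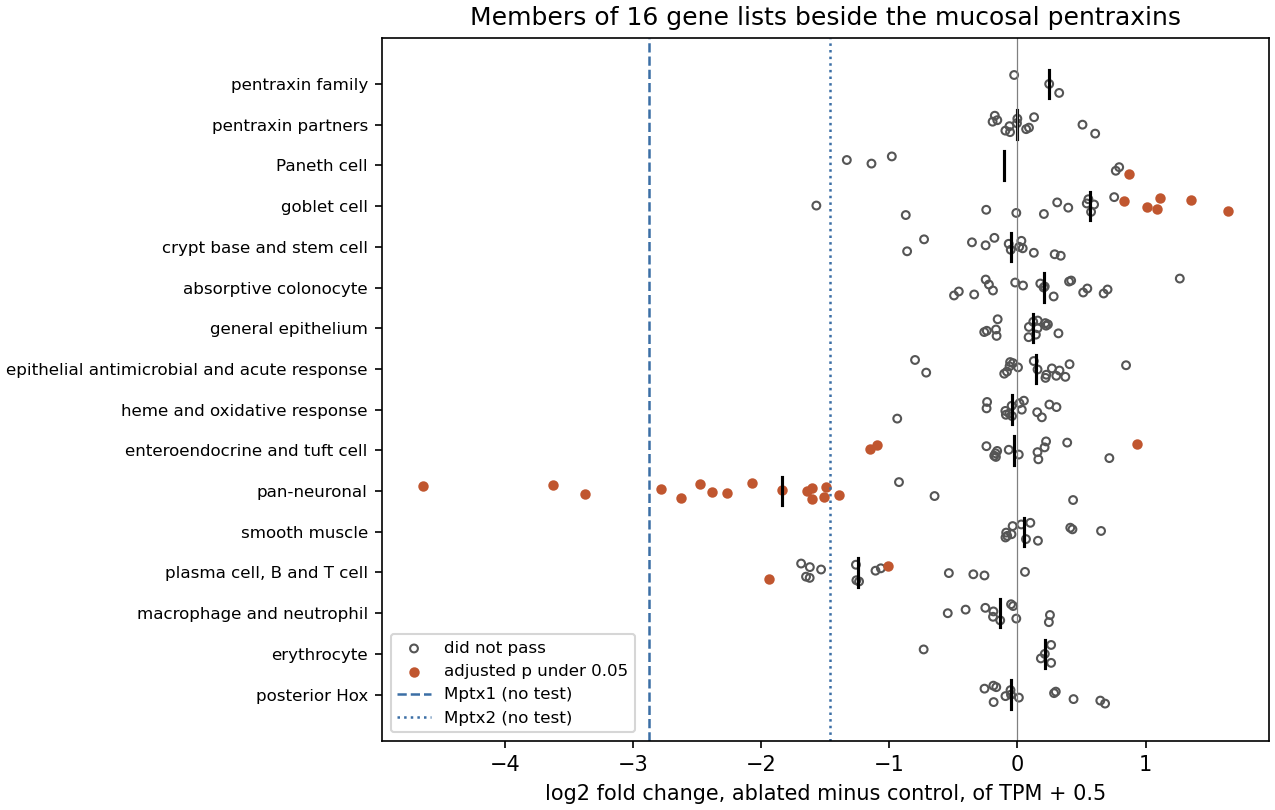
Log2 fold change (ablated minus control, of TPM + 0.5) of each tested member of 16 lists, filled where the limma adjusted p was under 0.05, with the list's median as a black bar. Mptx1 at -2.88 (dashed) lies below every member of the epithelial lists and within the range of the pan-neuronal list, of which 16 of 19 fell.

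Among other cells of the wall, 16 of 19 tested pan-neuronal genes fell, with a median of -1.84, where 1.01% of all tested genes fell and 0.421% rose. Calb2, the calcium-binding calretinin of enteric neurons, went from 24.4 ± 10.1 to 0.537 ± 0.537 TPM (adjusted p = 1.84e-05). Of 16 genes of plasma, B and T cells 2 fell, Tnfrsf17 and Iglc3, and the median was -1.25. The list's summed level was 2484 to 5574 TPM in control and 629 to 3376 TPM in ablated. The calls of Tnfrsf17 and Iglc3 were lost in 12 and 16 of the alternatives (adjusted p of up to 0.337 and 0.208). Smooth muscle (12 tested), macrophage and neutrophil (11 tested) and erythrocyte genes (5 tested) gave no call, with medians of 0.05, -0.13 and 0.21. Summed smooth muscle levels were 6850 to 10692 TPM in control. They were 16121 and 23354 TPM in ablated 2 and 6, and 7078 to 10098 TPM in the other ablated libraries. With Mptx1 the list had r = -0.0742 over the 7 ablated libraries (exact permutation p = 0.887, adjusted p = 0.887), and -0.879 without ablated 1 and 5. Of 16 tested enteroendocrine and tuft cell genes, Tph1 of serotonin synthesis rose 1.97-fold (adjusted p = 0.00407, and 0.105 with library number as a block), while the somatostatin gene Sst fell 2.18-fold from 44.4 ± 8.19 to 20.4 ± 6.66 TPM (adjusted p = 0.0138, and 0.0505 and 0.0586 without control 2 and control 3) and the calcium-binding Scgn fell 2.28-fold (adjusted p = 0.026, lost in 5 of the alternatives).

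A few epithelial genes, chosen after their values were seen, had an order among the ablated libraries like that of Mptx1. Ang4 and Itln1 belong to the Paneth cell list and Retnlb to the goblet cell list. Ang4, an angiogenin with antimicrobial activity, was at 181, 43.9, 42.7, 56.8 and 60.2 TPM in control 1 to 5 and at 2.23, 8.83, 30.1, 37.1, 1442, 5.62 and 79.2 TPM in ablated 1 to 7. Retnlb, the goblet cell protein RELM-beta, was at 155, 19.9, 33.8, 29.9 and 21.3 TPM in control and at 4.08, 3.46, 13.7, 6.26, 289.6, 4.01 and 21.5 TPM in ablated. Itln1, the lectin intelectin, was at 2.68 to 10.4 TPM in control and 0.245 to 9.11 TPM in ablated, again highest in ablated 5 and lowest in ablated 6. Each was lowest in ablated 1, 2 or 6 and highest of its group in ablated 5, as Mptx1 was lowest in ablated 1 and 6 and highest in ablated 5. In control each was highest in control 1, whereas Mptx1 was highest in control 5. None of Ang4, Retnlb and Itln1 passed between the groups (adjusted p of 0.819, 0.596 and 0.319). Lyz1, also of the Paneth cell list, shared that order only in part. It was at 1.22 and 0.937 TPM in ablated 1 and 6, at 1.84 TPM in ablated 5, and highest in ablated 3 (13.95 TPM). Muc2, the main mucin of goblet cells, did not share that order: it was at 2152 and 1892 TPM in ablated 1 and 6 and at 1195 to 2690 TPM over the group.

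**Figure D4:**
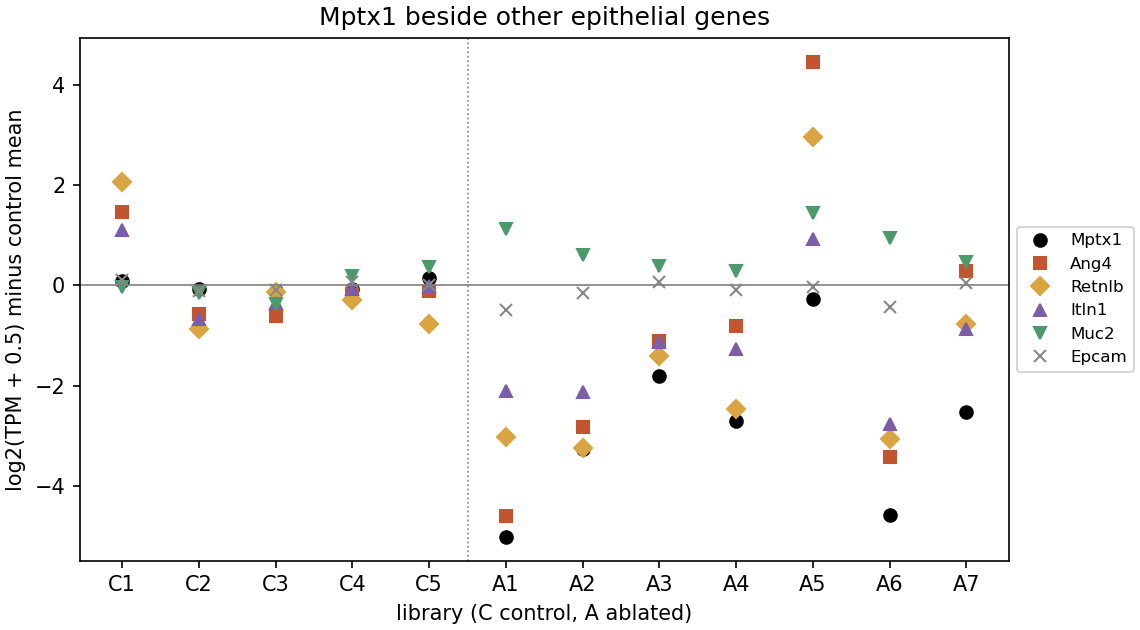
Difference of log2(TPM + 0.5) from the control mean for Mptx1 and 5 other epithelial genes in each control (C) and ablated (A) library. Among the ablated libraries, Mptx1, Ang4, Retnlb and Itln1 are low in ablated 1, 2 and 6 and highest in ablated 5. Muc2 is above its control mean in all ablated libraries and Epcam lies near its own.

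The genes most like Mptx1 were then sought over all 12 libraries, with each value centred on its own group mean so that the difference between groups had no part. Since the log2 SD of Mptx1 was 0.11 in control and 1.62 in ablated, its r rests mostly on the 7 ablated libraries. Of 13720 tested genes with a mean of at least 1 TPM, the 8 highest, picked for their r and not tested, had r of 0.931 to 0.970. In order they were Igkv3-2, an immunoglobulin variable segment, Kctd12, an auxiliary part of GABA-B receptors, Dclk1, a kinase that marks tuft cells, Atg14 of autophagosome formation, Tnfaip3, the NF-kappa-B inhibitor A20, the hydrolase Nudt16, Aamdc and the mitochondrial protein Nipsnap1. Igkv3-2, one of a large family of similar segments, was at 22.2 ± 6.42 TPM in control and 9.64 ± 10.9 TPM in ablated (adjusted p = 0.288). Dclk1 was at 2.38 ± 0.136 and 2.10 ± 0.564 TPM (adjusted p = 0.767), and Tnfaip3 at 19.97 ± 2.67 and 21.6 ± 9.92 TPM (adjusted p = 0.994). None of the 8 was called between the groups. By the same measure Mptx2, whose mean over all libraries is too low for that ranking, stood at 0.614 with Mptx1. That r would take place 3972 beside the 13720 genes. It includes the control libraries, where Mptx2 rested on 5 to 15 reads and had a log2 SD of 0.51. Over the 7 ablated libraries alone r was 0.938. With so few reads, the place cannot say whether other genes varied more like Mptx1 than Mptx2 did. The 8 genes most like Mptx2 had r of 0.859 to 0.906 and were Polr2g, Tpx2, Racgap1, Arrdc3, Nuf2, Cytl1, Wrnip1 and Poc1b. Tpx2, Racgap1 and Nuf2 act in mitosis. These likenesses rest on the 60 and 13 reads of Mptx2.

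Of the genes beside the mucosal pentraxins on chromosome 1, 1 was called, where 1.43% of all tested genes were. The 10 tested neighbours of Mptx1, from Mndal to Opn3, had log2 fold changes of -0.48 to 0.16 with a median of -0.09, and none was called. They include Ifi203, Ifi205 and Ifi211 of the interferon-inducible cluster. The 10 tested neighbours of Mptx2, from Cfap45 to Ifi207, had log2 fold changes of -0.81 to 0.33 with a median of 0.05. Cadm3, an adhesion molecule of neurons, fell from 4.18 ± 0.677 to 2.20 ± 0.562 TPM (adjusted p = 0.0362). That call was lost without control 2, 3, 4 or 5 or ablated 2, 4, 5 or 7, or with library number as a block (adjusted p of 0.0538 to 0.185). Ackr1, the nearest tested gene to Mptx2, was at 4.06 ± 1.21 and 4.88 ± 2.11 TPM (adjusted p = 0.899).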

How the data were processed

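Per the labels' protocols, total RNA was extracted with Trizol, polyadenylated RNA was selected and strand-specific libraries were made. Per the submitters' processing notes, bcl2fastq 2.17, HISAT and featureCounts were used with mm10; how reads that match more than 1 gene were counted is not given in the sources used here. The authors deposited TPM per gene in a series table and in 12 per-sample files, which hold identical values. The authors' deposited table also has edgeR columns, namely a log2 fold change, a mean log2 CPM, an F score, a p-value and a false discovery rate, of which only the log2 values were used here.

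A gene entered the tests where 5 libraries or more held 0.5 TPM or more of it (16164 of 27179). The model, two-sided and ablated minus control, was fitted to log2(TPM + 0.5) in limma 3.58.1 under R 4.3.3, using eBayes and its mean-variance trend. The Benjamini-Hochberg adjustment covered every gene that entered. The procedure was first tested on simulated data. TPM is no count, so no count test was run. For depth, whole reads were recovered from the TPM: each library's unit came from the commonest ratios among low genes, and lengths between 20 and 30000 bases were tried for one with whole reads in every library (tolerance 0.05 read), the candidate nearest to the authors' mean log2 CPM being kept. This worked for 22840 of 22842 genes above 0 and gave 13.4 to 26.9 M reads per library. Intervals on reads are exact 95% Poisson intervals, the limit drawn for a 0 is 3 reads, and both cover counting error only. Coordinates are those of GENCODE M21 and promoters those of RefSeq (GRCm38.p6), the assembly called mm10. Python 3.11.15, SciPy 1.17.1, Biopython 1.88 and matplotlib 3.10.9 were used for the rest.

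The members and lists were chosen with earlier results of these data known, and the 2 genes were picked because they fell, so no test of that difference is given for them. Named besides them are the other pentraxins, up to 4 called members of each list by p (or the 2 of lowest p where none was called), the 8 genes most like each member, and the 5 tested neighbours on each side. One gene that this rule names is not reported here. Library numbers 1 to 5 occur in both groups. Alternatives were other constants (1 and 0.1), other minima (none, or 1 TPM), scaling, the variance trend, a block for library number, the denominator and the libraries. Leaving out ablated 1 and ablated 6 together was added after the data were seen.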

Additional observations from a re-analysis of the deposited data

Results flagged for a closer look

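Mptx1 in ablated 5 stood apart from its group: at 7556 TPM it lay far above the next library (2602 TPM), and the gap made up 0.681 of the group's range. Among the 79 genes named here, 156 groups of libraries were examined in the same way and 22 values stood apart. The nominal rate of about 1 in 20 groups cannot be set against that number. Genes share the same libraries, and a gene above 0 in only 1 library of a group always stands apart, as Crp did in both groups and Ptx4 in control. In ablated 3, values above the rest were those of Slamf8 (10.5 TPM), Lyz2 (1574 TPM), Hp (22.2 TPM), Ifi205 (6.88 TPM), Ifi209 (5.25 TPM), Ifi211 (7.89 TPM) and Crp (0.0941 TPM), and Tff3 was below (3392 TPM). In control 4, Mndal (15.4 TPM), Ifi203 (6.97 TPM) and Ifi205 (6.12 TPM) were above the rest and Cnn1 (685 TPM) below. The others were Fh1 (77.9 TPM) and Ptx4 (0.326 TPM) in ablated 1, Stmn3 (1.68 TPM) in ablated 2, Vsig8 (3.41 TPM) in ablated 5, Crp (0.341 TPM) and Nptx2 (1.73 TPM) in control 1, Cfap45 (2.58 TPM) and Ptx4 (0.0472 TPM) in control 2, and Nuf2 (6.11 TPM) in control 5.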

How the results depend on the processing

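The log2 difference of Mptx1, whose direction the choice of the gene fixes, ran from -3.31 to -2.52 when 1 library was left out and at -2.11 without ablated 1 and 6 together. That of Mptx2 was -1.66 to -1.32 with 1 library left out, -1.01 with 1 added and -2.51 with 0.1 added. Over all genes 231 were called, against 349 with no minimum level, 84 with library number as a replicate block and 128 to 328 with 1 library left out (128 without control 2, 137 without control 3). The numbers pair no libraries by the labels, and deviations of same-numbered libraries had r of -0.269 to 0.359, so the block says nothing of effect size. With the block, Mptx1 was at -2.61 and Mptx2 at -1.41, and Bcas1, Clps, Cadm3, Iglc3, Sytl2, Tff3, Tnfrsf17, Tph1 and Zg16 lost their calls (for the goblet cell genes, adjusted p of 0.0597 for Sytl2 to 0.135 for Zg16). The correlation of Mptx1 with Mptx2 in ablated was 0.621 relative to general epithelium and 0.909 to 0.962 with 1 library left out, and 0 to 1 of the relations with lists passed. For the causes of these shifts no test was made. The limit of depth falls on Mptx2, with at most 15 reads in a library.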

Other observations

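Clca1, a protein that goblet cells secrete into mucus, was chosen after its values were seen. It was at 689 and 801 TPM in ablated 1 and 6, the libraries lowest in Mptx1, and at 3681 TPM in ablated 5, against 813 to 1319 TPM in control (adjusted p = 0.684 between the groups). Muc2, a product of the same cells, was at 2152, 1892 and 2690 TPM in these 3 ablated libraries.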
